A study of Mus musculus with 2 samples.

Results

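Selectin ligands are sugar structures that let a circulating T cell roll on the wall of an inflamed vessel, and the 9 genes described here encode the main protein that carries them, the P-selectin that binds them and 7 enzymes that build them. The genes were Selplg, Selp, Gcnt1, Fut7, Fut4, St3gal6, St3gal4, St3gal1 and B4galt1, and their probes were found by gene symbol in the array's annotation. The set was put together with earlier results of these data known. They were read by 15 probes on 24 spots, among 20738 genes with a named probe. All 9 were detected, which here means a signal above the median probe of an array (14.6 units in the knockout-labelled library and 14.2 units in the wild-type-labelled library), as were 13411 genes in all.

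The series compared CD4 T cells of C57BL/6 mice labelled as Gfi1 knockout with cells labelled as wild type (Gfi1 is a zinc-finger protein that represses transcription), and its title names the T helper 1 programme as the question. In both groups naive CD4 T cells isolated from spleen were stimulated over 2 days through the T cell receptor beta chain (antibody at 3 µg/ml) and CD28 (antibody at 1 µg/ml), with IL-2 (10 ng/ml) and with neutralising antibodies to IL-4 (5 µg/ml) and IFN-γ (5 µg/ml). There was 1 array for each genotype, so no difference below has a test or a replicate check, and no spread between animals or cultures is known. The sources used here name neither the Gfi1 allele nor the number of animals behind a culture.

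The label check does not bear the genotypes out. Gfi1 itself read 18100 units in the knockout-labelled library and 4260 units in the wild-type-labelled library. Where its probe lies relative to the deleted part is not known from the labels, and a probe outside that part would check nothing. The libraries also differed in sex-linked transcripts, with the X-linked Xist at 3.86 units in the knockout-labelled library and 447 units in the wild-type-labelled library and the Y-linked Eif2s3y at 3870 and 2.91 units in that order. Genotype label and sex cannot be told apart, and every direction given is that of the labels.

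PSGL-1, the product of Selplg, is a mucin-like surface protein of T cells that binds P-selectin only when its O-glycans carry the right cap. GCNT1 opens the core 2 branch, galactosyltransferases such as B4GALT1 extend it, ST3GAL4 and ST3GAL6 add sialic acid, and FUT7 with FUT4 adds the fucose that completes sialyl Lewis X. ST3GAL1 instead caps the unbranched core 1 glycan and can keep it from being branched. In mice, Fut7 and Gcnt1 are known to be induced in activated T helper 1 cells, which bind P-selectin and E-selectin in inflamed skin, while naive T cells largely lack these ligands.

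Promoter sequences are shown for the 5 genes past 2-fold in the knockout-labelled library. These genes were picked by their values in these data, and whether GFI1 acts on them was not tested. Of the 9 genes, 7 had at least 1 promoter window in a RefSeq table of build GRCm38.p6 and 2 (Selplg and St3gal1) are named only. A window runs from 250 bases before the annotated start to 50 bases after it, and for a gene with several starts the one farthest upstream is printed, 5′ to 3′ on the gene's strand. Capitals mark AATC, the core letters that GFI1 is known to bind, or GATT, the same letters on the other strand.
Selp, chr1:164115014-164115313, plus strand: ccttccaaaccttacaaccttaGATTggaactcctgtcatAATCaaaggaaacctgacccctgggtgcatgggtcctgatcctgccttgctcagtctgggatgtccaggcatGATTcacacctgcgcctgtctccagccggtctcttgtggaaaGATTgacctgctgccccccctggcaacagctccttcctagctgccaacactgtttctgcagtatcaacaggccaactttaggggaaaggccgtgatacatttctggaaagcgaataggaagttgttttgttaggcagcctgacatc
Gcnt1, chr19:17372795-17373094, minus strand: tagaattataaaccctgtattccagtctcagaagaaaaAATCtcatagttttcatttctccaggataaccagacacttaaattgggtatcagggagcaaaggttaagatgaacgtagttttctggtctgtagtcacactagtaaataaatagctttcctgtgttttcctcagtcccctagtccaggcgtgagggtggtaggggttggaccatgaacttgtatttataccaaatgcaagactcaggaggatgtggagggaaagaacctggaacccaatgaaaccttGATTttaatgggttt
Fut7, chr2:25422992-25423291, plus strand: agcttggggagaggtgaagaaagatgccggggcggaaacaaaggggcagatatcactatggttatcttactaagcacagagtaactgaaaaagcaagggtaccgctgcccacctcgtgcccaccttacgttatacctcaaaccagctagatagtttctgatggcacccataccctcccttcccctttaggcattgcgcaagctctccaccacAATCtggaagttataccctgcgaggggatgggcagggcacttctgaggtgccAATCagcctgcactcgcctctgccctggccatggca
St3gal6, chr16:58524204-58524503, minus strand: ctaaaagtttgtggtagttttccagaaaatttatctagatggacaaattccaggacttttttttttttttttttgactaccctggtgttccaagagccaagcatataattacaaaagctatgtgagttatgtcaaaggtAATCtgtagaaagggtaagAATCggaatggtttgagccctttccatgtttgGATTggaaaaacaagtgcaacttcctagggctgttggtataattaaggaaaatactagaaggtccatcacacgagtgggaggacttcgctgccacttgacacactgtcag
Fut4, chr9:14752073-14752372, minus strand: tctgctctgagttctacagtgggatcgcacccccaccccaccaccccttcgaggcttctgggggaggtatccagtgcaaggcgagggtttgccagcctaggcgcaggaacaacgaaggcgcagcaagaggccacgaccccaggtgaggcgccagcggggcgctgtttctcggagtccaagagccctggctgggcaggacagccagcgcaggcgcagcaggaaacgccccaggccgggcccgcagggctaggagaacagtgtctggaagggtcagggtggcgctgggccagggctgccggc

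AATC on either strand was found in a window of 4 of these 5 genes, 4 times in that of Selp, 2 times each in those of Gcnt1 and Fut7 shown and 3 times in that of St3gal6. It was not found in the window of Fut4, nor in those of B4galt1 and St3gal4, which differed by less than 2-fold. So short a motif is common, and 73.1% of the 32851 windows in the table hold it. The windows also differ in base composition, with 68.0% G and C in that of Fut4, 68.3% in that of B4galt1 and 74.0% in that of St3gal4, against 38.7% in that of St3gal6, 40.7% in that of Gcnt1, 51.7% in that of Selp and 54.0% in that of Fut7, and a median of 52.7% over all windows. GGTGTGA, the half-site of T-box factors, was found on the reverse strand in the window of Selp, where it shares 1 base with a GATT, and 3.98% of all windows hold it. TTCNNNGAA, a site form of STAT factors, was found in the window of B4galt1 and in 8.30% of all windows. A match is a description of letters and was not tested as a binding site.

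The library labelled knockout had higher signals for P-selectin, for the core 2 branching enzyme, for both fucosyltransferases and for the sialyltransferase gene St3gal6, and nearly level signals (under 1.5-fold) for PSGL-1 itself, for B4galt1 and for the other 2 sialyltransferases. A higher signal by 2-fold or more was found for 5 of the 9 genes and a lower one for 0. Over all 13411 genes detected the share was 3.62% for higher and 1.52% for lower. The median log2 difference, knockout-labelled minus wild-type-labelled library with the arrays scaled to each other, was 1.10 over the 9 genes and -0.05 over all genes detected. The 5 genes past 2-fold began at 1.10 for St3gal6, and the next gene below them, Selplg, stood at 0.30. In RNA of a whole culture, more cells of a type and more RNA per cell cannot be told apart.

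**Figure D1:**
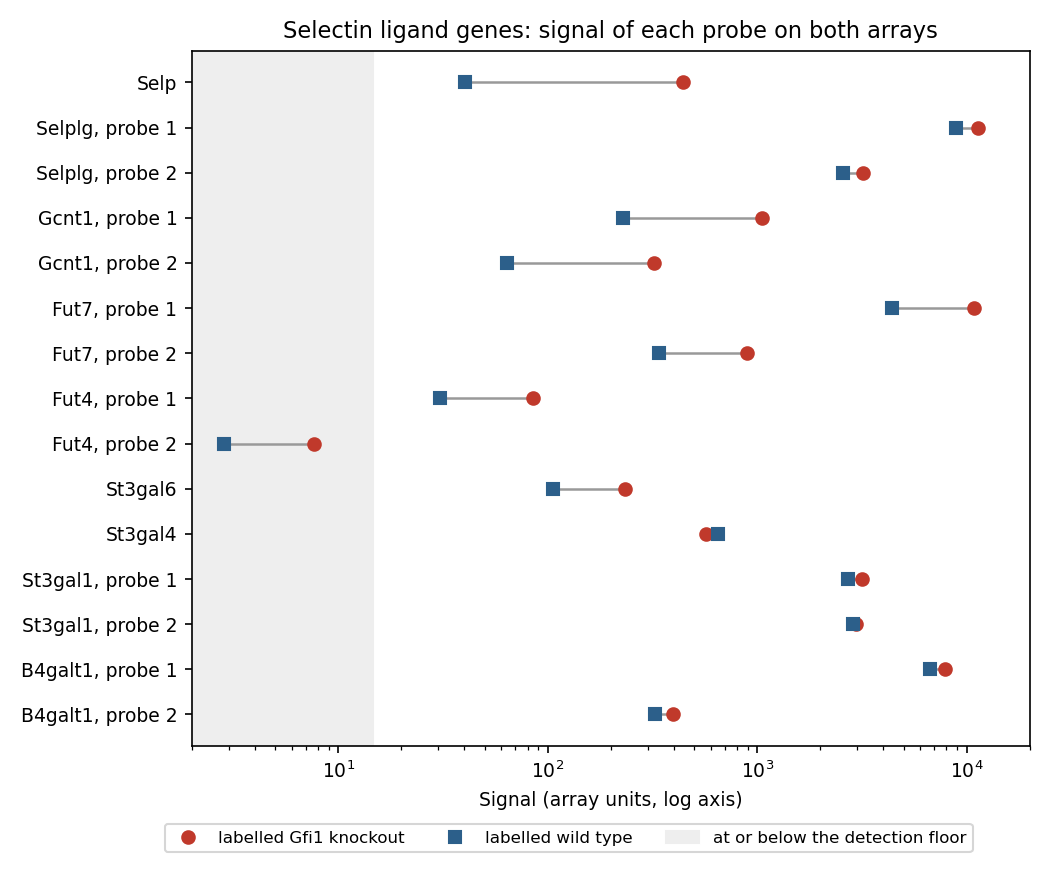
Signal of each of the 15 probes, in array units on a log axis, in the knockout-labelled library (circles) and the wild-type-labelled library (squares), with the probes of a gene listed apart and the grey band at or below the detection floor. The circles lie well to the right of the squares for Selp, Gcnt1, Fut7, Fut4 and St3gal6, and close to them for Selplg, B4galt1, St3gal4 and St3gal1.

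Selp had the largest difference of the 9. It encodes P-selectin, the receptor best known from the granules of platelets and endothelial cells. Its probe is printed on 10 spots, which read 427 to 475 units (median 436.5) in the knockout-labelled library and 32.7 to 47.4 units (median 40.1) in the wild-type-labelled library. The lowest spot under the knockout label was therefore far above the highest under the wild-type label. The log2 difference was 3.44 ± 0.19 (SD over 10 spots of the same arrays), a 10.8-fold higher signal, and 0.119% of the genes detected had a larger one. On the 7 spots with feature numbers up to 50000 the difference was 3.53 ± 0.14, and on the 3 later spots it was 3.22 ± 0.07. All 10 spots hold the same probe, so they do not check its specificity.

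**Figure D2:**
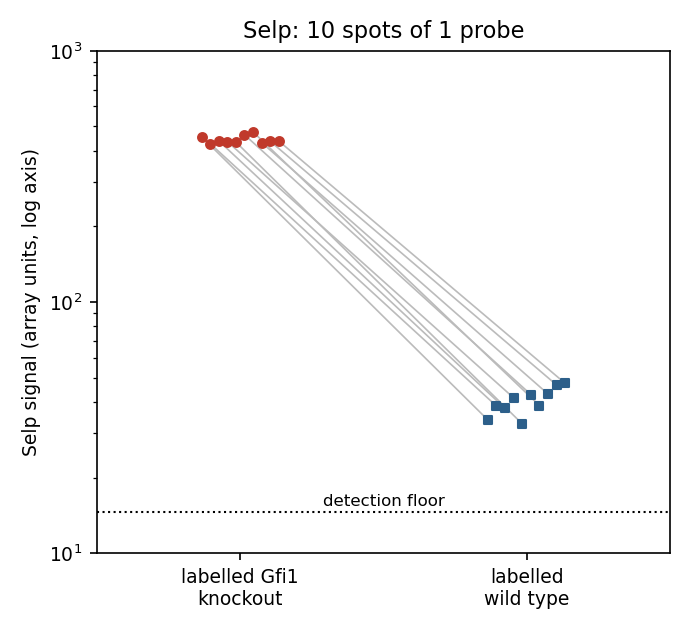
Signal of the 10 Selp spots, in array units on a log axis, in the knockout-labelled library (circles, left) and the wild-type-labelled library (squares, right), with a line joining the readings of the same spot and the spots set out by feature number. All 10 lines run between 427 to 475 units on the left and 32.7 to 47.4 units on the right, above the dotted detection floor.

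Platelet and endothelial genes are given beside Selp, since both cell types are known to express it. Of the 9 platelet and megakaryocyte markers with a probe, 3 were detected and 1 was past 2-fold. That gene was Pf4, a platelet chemokine, at 147 units in the knockout-labelled library and 54.6 units in the wild-type-labelled library (feature number 51099). Also detected were Gp1bb, at 18.7 units in the knockout-labelled library and 14.4 in the other, and Treml1, at 9.89 (below the floor) and 19.7. Ppbp, Gp9 and Gp1ba, which define platelets, read 3.34 to 3.83 units in the knockout-labelled library and 3.04 to 3.46 units in the wild-type-labelled library, all below the floor. Itga2b read 12.5 units in the knockout-labelled library and 6.2 in the other, and Gp6 9.48 and 12.4, all below the floor. The summed signal of the list was 201.3 and 111.6 units in that order of libraries. Sums of marker lists, here and below, take each gene as the geometric mean of all its probes, those below the floor included. Such a sum can therefore lie below the reading of a single detected probe. Of the 8 endothelial markers 3 were detected and 0 were past 2-fold. Kdr read 2900 units in the knockout-labelled library and 3120 units in the wild-type-labelled library on its detected probe. Pecam1 read 123.5 and 133 units in the same order of libraries. Sele, the E-selectin of activated endothelium, read 3.30 units in the knockout-labelled library and 2.78 units in the wild-type-labelled library, and Cdh5 and Tek were also below the floor in both. The endothelial sum was 276.9 units in the knockout-labelled library and 280.8 units in the wild-type-labelled library.

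Selplg, which encodes the PSGL-1 protein that the enzymes decorate, was nearly level. Its 2 probes read 11300 and 3200 units in the knockout-labelled library, against 8860 and 2580 units in the wild-type-labelled library. Both were slightly higher under the knockout label, by 0.32 and 0.28 on the log2 scale (gene value 0.30 ± 0.03, SD over 2 probes, 1.23-fold). In 15.1% of the genes detected the difference was higher than that.

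Gcnt1 stood second among the 9. Its enzyme, core 2 N-acetylglucosaminyltransferase, creates the branch on which selectin ligands of T cells are built. The first probe read 1050 units in the knockout-labelled library and 229 units in the wild-type-labelled library, and the second 322 and 63.8 units in the same order of libraries. The probes gave log2 differences of 2.16 and 2.30, a gene value of 2.23 ± 0.10 (SD over 2 probes) or 4.70-fold. In 0.738% of the genes detected the difference was higher. The other 3 enzymes of this family on the array, Gcnt2, Gcnt3 and Gcnt4, were below the floor in both libraries.

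Both fucosyltransferase genes were higher in the knockout-labelled library. Fut7, the enzyme that limits sialyl Lewis X in mouse leukocytes, read 10800 and 897 units on its 2 probes in that library and 4390 and 338 units in the wild-type-labelled library. The probes gave 1.27 and 1.38, a gene value of 1.32 ± 0.08 (SD over 2 probes) or 2.50-fold. Fut4, which adds fucose to related structures, read 84.7 units in the knockout-labelled library and 30.5 units in the wild-type-labelled library on its detected probe, a difference of 1.44 or 2.71-fold. Its other probe was below the floor in both, at 7.61 units under the knockout label and 2.84 units under the wild-type label, and did not enter the gene value. Other fucosyltransferase genes did not share this size of difference. Of the 8 listed, among them Fut8, which fucosylates the core of N-glycans, and Pofut1, which acts on Notch receptors, 5 were detected, 0 were past 2-fold in either direction and the median was -0.17.

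The 3 sialyltransferase genes among the 9 differed from each other. St3gal6, which sialylates selectin ligands, read 233 units in the knockout-labelled library and 106 units in the wild-type-labelled library, a log2 difference of 1.10 or 2.15-fold on a single probe. This is the smallest of the differences past 2-fold, and 3.00% of the genes detected had a higher one. St3gal4, which acts on the same chains, read 568 units in the knockout-labelled library and 646 units in the wild-type-labelled library and stood at -0.22. St3gal1, the core 1 sialyltransferase, read 3150 and 2960 units on its 2 probes in the knockout-labelled library, against 2720 and 2870 units in the wild-type-labelled library. It stood at 0.10 ± 0.12 (SD over 2 probes). Its first probe lies at feature number 62870 and gave 0.18, and the second gave 0.01.

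Among the 6 ST3Gal genes St3gal6 alone was past 2-fold. St3gal2 stood at -0.21 and St3gal3 at -0.01. St3gal5, which makes the ganglioside GM3, had the largest difference in the other direction, at 264 units in the knockout-labelled library and 472 units in the wild-type-labelled library (-0.87).

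B4galt1, a galactosyltransferase that extends the branch, was nearly level. Its 2 probes read 7900 and 397 units in the knockout-labelled library, against 6690 and 326 units in the wild-type-labelled library. The gene value was 0.23 ± 0.03 (SD over 2 probes) or 1.17-fold. Of the related genes, B4galt5 stood at 0.57 ± 0.11 (SD over 2 probes), B4galt3 at 0.29 ± 0.02 (SD over 2 probes), B4galt4 at 0.12, B4galt7 at 0.00 and B4galt2 at -0.07. B4galt6 was read at 349 units in the knockout-labelled library and 3.10 units in the wild-type-labelled library on a probe at feature number 60788. The second value is below the floor, so that this probe was at least 24.0-fold higher. A second B4galt6 probe read 3.77 units in the knockout-labelled library and 3.42 units in the wild-type-labelled library, below the floor in both, so the 2 probes of this gene disagree. Among spots that exceeded 15 units on an array but were dimmer than 500 units on both, 15.9% of those above feature number 50000 and 5.03% of the others differed by 2-fold.

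**Figure D3:**
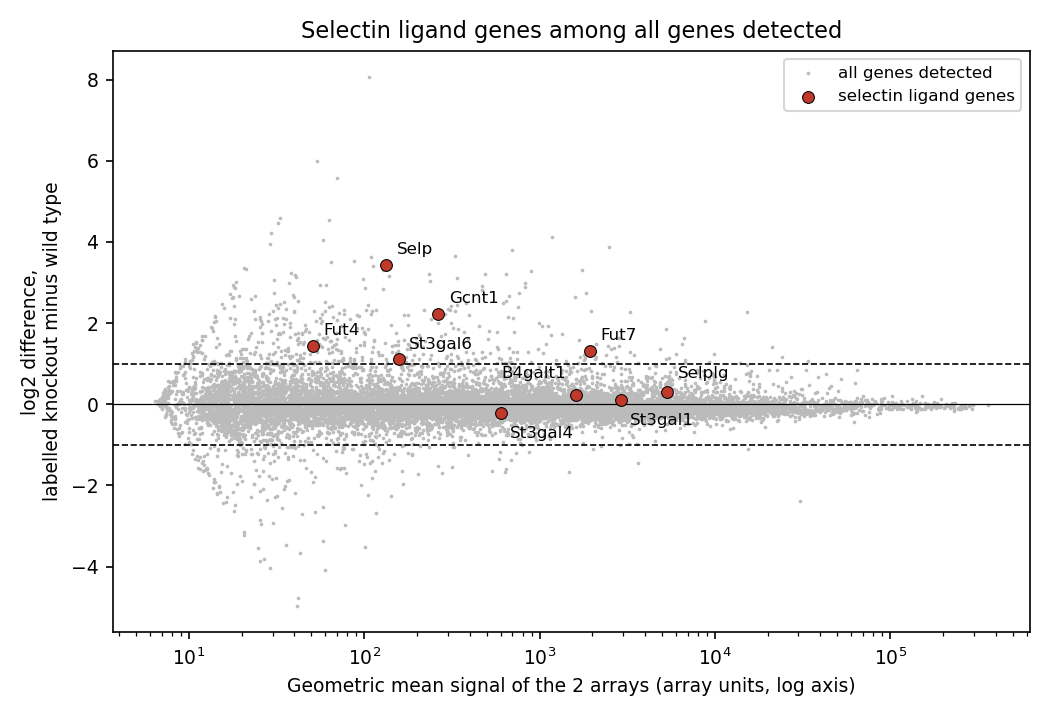
Log2 difference, knockout-labelled minus wild-type-labelled library, against the geometric mean signal of the 2 arrays (array units, log axis), for the 13411 genes detected (grey) and the 9 selectin ligand genes (red), with dashed lines at 2-fold and readings below the floor set to it for the difference. Selp, Gcnt1, Fut4, Fut7 and St3gal6 lie above the upper line and the other 4 lie near 0.

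Readings within the arrays were closer together than the differences past 2-fold. Where a probe occupies 10 spots, its log2 difference had a median SD of 0.35 at signals of 15 to 50 units (32 probes), 0.11 at 50 to 500 units (63 probes), 0.05 at 500 to 5000 units (103 probes) and 0.04 above that (40 probes). Between the probes of a gene the median SD was 0.10, over 3655 genes with more than 1 detected probe, and the 5 of the 9 genes with 2 detected probes had probes within 0.17 of each other. Gcnt1 and Fut7 each had both probes past 2-fold. Selp, Fut4 and St3gal6 rest on a single detected probe each.

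Around these 9 genes, 81 other genes of the pathway were listed by step, of which 79 had a probe and 60 were detected. Of these, 5 (8.33%) were higher by 2-fold or more and 1 (1.67%) was lower, against 3.62% and 1.52% of all genes detected. B4galt6 and B3gnt5, among the 5, were detected only under the knockout label and so could not come out lower. With only probes detected in both libraries, 3 of 57 were higher and 1 lower, against 374 and 125 of 12498 genes. The median of the 60 was -0.01. The 5 higher genes include B4galt6 and B3gnt3, which were detected only on spots above feature number 50000, and without such spots 3 of 53 were higher and 0 lower.

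Genes for the proteins that can carry selectin ligands differed little in signal where they were detected. Of 11 selectin and carrier genes with a probe 5 were detected and 0 were past 2-fold. Spn, which encodes the mucin CD43, stood at -0.40 ± 0.10 (SD over 2 probes), and Glg1, the E-selectin ligand ESL-1, at -0.21. Cd44, an adhesion receptor that can bind E-selectin, stood at -0.11 ± 0.39 (SD over 4 probes).

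Genes for the enzymes that start O-glycans were mostly level in signal. Of 11 detected genes for O-glycan initiation and branching 10 were within 1.5-fold and 0 were past 2-fold. C1galt1, the core 1 synthase, stood at 0.18 and its chaperone gene C1galt1c1 at 0.07. Galnt3, which attaches the first sugar, had the largest difference, with 983 units in the knockout-labelled library and 573 units in the wild-type-labelled library (0.75) on a spot at feature number 53336.

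Chain extension held 3 of the 5 higher genes. B3gnt5, which starts lactoseries glycolipids, read 60.0 units in the knockout-labelled library and 13.2 units in the wild-type-labelled library, where it lay below the floor, and was at least 4.13-fold higher. A second B3gnt5 probe was below the floor in both. B3gnt3, which extends core 1 chains, read 71.2 units in the knockout-labelled library and 34.0 units in the wild-type-labelled library (1.03, feature number 61291).

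Of the sialyltransferase genes outside the 9, 10 were detected. St8sia4, a polysialyltransferase, was the only one past 2-fold, at 5230 units in the knockout-labelled library and 2510 units in the wild-type-labelled library (1.03). The next largest differences were those of St3gal5, given above, and of St8sia6, at 328 units in the knockout-labelled library and 480 units in the wild-type-labelled library (-0.58, feature number 57233). St6gal1, which places sialic acid on N-glycans, stood at 0.40 ± 0.12 (SD over 2 probes).

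Sulfation genes held the 1 lower gene. Chst2, a sulfotransferase that acts on N-acetylglucosamine, read 213 and 11.1 units on its 2 probes in the knockout-labelled library, against 589 and 23.0 units in the wild-type-labelled library. It stood at -1.09 ± 0.57 (SD over 2 probes), with the first probe at feature number 55464. The second probe was below the floor under the knockout label and was raised to it, so this value is partly a bound. As read, without the floor, the probes gave -1.50 and -1.08. Tpst2 and Tpst1, the enzymes that sulfate the tyrosines P-selectin binds on PSGL-1, stood at 0.09 and -0.36. The supply of sugar donors was level in 12 of 13 detected genes, all within 1.5-fold. Gmds and Gfus, which make GDP-fucose, read 3030 and 1940 units in the knockout-labelled library, against 2960 and 1900 units in the wild-type-labelled library, and Slc35c1, which carries GDP-fucose into the Golgi, stood at -0.21. The exception was Uap1, which makes UDP-N-acetylglucosamine, at 5350 units in the knockout-labelled library and 2240 units in the wild-type-labelled library (1.22).

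**Figure D4:**
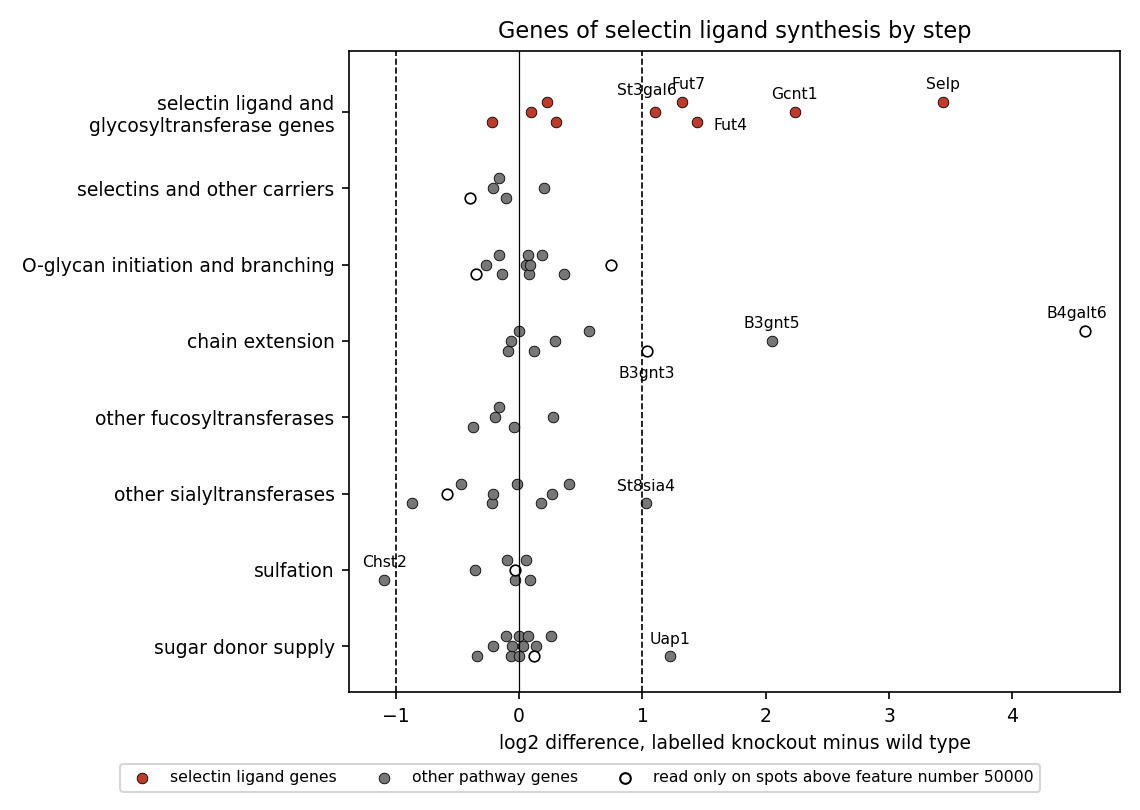
Log2 difference, knockout-labelled minus wild-type-labelled library, of each detected gene, set out by its step in the synthesis of selectin ligands, with dashed lines at 2-fold and open circles for genes detected only on spots above feature number 50000. The 9 selectin ligand genes (red, top) have 5 points past 2-fold, and the 60 other genes have 6, which are named.

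Markers of other blood cells also differed between the libraries. The 9 genes marking CD8 T or NK cells were all detected and higher in the knockout-labelled library, where 5581 of all 13411 genes detected were higher. Of the 9, 5 (55.6%) were higher by 2-fold or more, against 3.62% of all genes detected. Their summed signal was 1083 units in the knockout-labelled library and 350.3 units in the wild-type-labelled library. Klrd1 stood at 1.75 and Klrc1 at 2.31 (1 of its 2 probes was below the floor under the wild-type label), and the NK receptor gene Klra4 and the signalling chain gene Fcer1g (feature number 59707) stood at 2.13 and 1.46. Cd8a, Klrk1, Klrb1c and Ncr1 read 34.9, 18.2, 20.8 and 28.3 units in the knockout-labelled library and were below the floor under the wild-type label. Detected only under the knockout label, these genes could not come out lower. Of 6 detected B cell markers 5 were higher and 1 lower, with a median difference of 0.39. Past 2-fold were 2, Blnk (3.62) and Ms4a1 (3.52). Cd79b was the lower one, at -0.17, and Pax5 was below the floor in both libraries. The B cell sum was 955.7 and 399.8 units in the same order of libraries. Of 5 detected myeloid markers 1 was past 2-fold. That was Mpeg1, a gene of macrophages, at 335 units in the knockout-labelled library and 11.7 units, below the floor, in the wild-type-labelled library, at least 23.1-fold higher. The median of the 5 was 0.01, and the myeloid sum was 368.6 units in the knockout-labelled library and 324.2 units in the wild-type-labelled library. Of the 9 CD4 T cell markers detected 3 were higher and 6 lower, with a median difference of -0.21. The higher ones were Cd247 at 1.85 ± 1.99 (SD over 2 probes, which disagree), the only one past 2-fold, Trat1 at 0.74 and Themis at 0.68. Among the lower ones Cd4 stood at -0.14 ± 0.03 (SD over 2 probes) and Cd3e at -0.43. The sum of the 9 was 131500 units in the knockout-labelled library and 160900 units in the wild-type-labelled library. The part of these cells in the differences above was not tested.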

How the data were processed

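The arrays were 1-colour (Cy3). Each was hybridised with label made from 100 ng of total RNA, per the labels' protocols, and per the submitters' processing notes the authors used Agilent Feature Extraction 11.5.1.1. The deposited files give a linear intensity per spot, headed as raw, without flags and with an unstated background correction. A second deposited table holds intensity values close to these times a constant per array (2.26 for the knockout-labelled library, 2.27 for the other; column medians 34.8 and 34.4), linear, not centred, the constant unexplained.

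The log2 signals of 59305 spots were averaged to 55681 probes, less each array's 75th percentile (269 units for the knockout-labelled library, 263 for the other). A reading below the floor was raised to it, giving a bound where a whole side is below. Genes are means over probes detected on either array. Summed signals of marker lists were unscaled and instead used the geometric mean of all probes of a gene, detected or not. Of the spots 31465 had 1 symbol, 0 several and 27840 none, and symbols were updated through RefSeq accessions (29036 spots), symbols (2075) or synonyms (349), with 5 kept. With 1 array per genotype genes were counted at 2-fold without a test, and the number of arrays limits the precision.

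The 9 genes and the lists were chosen with earlier results of these data known. The naming rule takes all 9, Gfi1, listed genes past 2-fold, the next 2 of each list and markers past 2-fold or at the floor, of which the text names a part. C1galt1, C1galt1c1, Tpst2, Gmds, Gfus, Slc35c1, St6gal1, Cd44, Cd79b, Cd4, Cd3e, Trat1, Themis, Fut8, Pofut1, Xist, Eif2s3y, Kdr, Pecam1, Gp1bb, Treml1 and the other ST3Gal and B4galt genes were added after their values were seen. With 2 arrays no gene can be called alike in pattern. The steps were tested on simulated data, with Python 3.11.15, numpy 2.4.6, pandas 2.3.3 and matplotlib 3.10.9.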

Additional observations from a re-analysis of the deposited data

How the results depend on the processing

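Other settings tried were median scaling, quantile normalization, no scaling, the authors' deposited table, floors at the 25th and 75th percentile, probes detected in both libraries alone, the brightest probe, an offset of 16 units, removal of spots with feature numbers over 50000, and fold thresholds of 1.5 and 3. Of 88 values of single genes among the 9, 78 moved by less than the spread of replicate spots and stayed on their side of 2-fold, 10 moved further or crossed 2-fold and 0 turned round. Many of the 78 could hardly move, so the count does not measure stability. Median scaling and no scaling shift all genes alike, and the deposited table is close to the same signals times a constant. A gene with a single detected probe keeps its value under the brightest probe. All detected probes of the 9 genes were detected in both libraries, so that setting changed none. With the floor at the 75th percentile 7 genes were detected, 2 were past 2-fold and the median was 0.30, with Selp at 0.72 and Gcnt1 at 1.11, since that floor lies above their wild-type readings. An offset of 16 units gave a median of 1.00, with St3gal6 at 1.00, just under 2-fold, and left 4 genes past it. A 3-fold threshold left 2 of the 9 genes and 2 of the other pathway genes. Of these other genes 6 were past 2-fold, against 3 with the floor at the 75th percentile and 3 without spots over feature number 50000. The median over all genes lay between -0.06 and -0.02 in the settings that keep the 2-fold threshold. Dim readings limit Fut4 and the wild-type side of Selp. No paired analysis was possible because each genotype has 1 array, and for the same reason no array could be left out.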
